A study of Homo sapiens with 8 samples.

Results

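DNA replication genes were taken as 50 genes named by symbol, from the initiator and helicase of replication origins to the enzymes that supply nucleotides, and all 50 were measured among the 21525 genes tested. They were found by the symbol in the array annotation, which gave 64 probes, with 38 genes read by 1 probe, 10 by 2 and 2 by 3. The 8 one-colour Agilent arrays hold total RNA of NGP cells, an established human neuroblastoma line. Of these, 4 are labelled as NGP cells transduced with CFC1 cDNA by lentivirus and 4 as mock-infected NGP cells, and both groups were selected with puromycin. CFC1 encodes Cryptic, a co-receptor for Nodal. No label names the promoter that drives the cDNA or the number of clones. Separate cultures are not stated for the 4 arrays of a group, and the array-to-array spread behind each p-value may therefore be technical.

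A replication origin is licensed when the origin recognition complex, with CDC6 and CDT1, loads the MCM2 to MCM7 ring onto DNA. At the onset of S phase, CDC45 and the GINS complex join the ring to form the active helicase, and DNA polymerases alpha, delta and epsilon copy the opened strands behind it. Many genes of this machinery are transcribed at the G1 to S transition under E2F factors held in check by the RB family. Their expression is commonly read as a mark of proliferation, in neuroblastoma as in other tumours.

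The deposited values are logarithms, read as log2, of each probe relative to a baseline that is not stated. A value therefore compares arrays for 1 gene and gives no level of expression, so levels of different genes cannot be compared, and neither can the level of a cell type marker be checked. Differences below are arrays labelled CFC1 minus mock arrays, n = 4 in each group, and adjusted p-values are Benjamini-Hochberg values of limma over all 21525 genes, with a threshold of 0.05. A gene past it is said to have risen or fallen. The transduced gene checks the labels. CFC1 stood at 0.05, -0.69, -0.59 and -0.30 in the arrays labelled CFC1, against 0.47, 1.10, 0.12 and -0.03 in the mock arrays. Its single probe was thus not higher in the arrays labelled CFC1, with overlapping groups and a difference of -0.80 (SE 0.276, adjusted p = 0.0398 in limma). That call was lost without CFC1 replicate 2, 3 or 4 or mock replicate 1 or 2 (adjusted p 0.061 to 0.0994 in limma). A two-sided exact permutation test over the arrays gave p = 0.0571, where 0.0286 is the smallest possible. A probe outside the transduced cDNA would check nothing, and where this probe lies was not analysed here. Every direction below rests on the labels. Of all genes tested, 57.9% passed the threshold, and the first principal component took 79.1% of the variance. In bulk RNA, fewer cells in S phase and less RNA of a gene per cell cannot be told apart.

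Most replication genes rose. Of the 50, 34 rose and 9 fell, where 29.7% of all genes tested rose and 28.2% fell, and 7 did not pass. The median difference over the 50 was 0.22 on the log2 scale, against -0.09 over all genes. Groups did not overlap in 34 members with higher and 10 with lower values in the arrays labelled CFC1, where 56.5% of all genes had such a gap, 29.1% with higher and 27.3% with lower values. Most changes were small. At least 0.5 log2 units were reached by 13 risen and 3 fallen members (18.5% and 17.6% of all genes), and 2-fold by 3 risen members and 0 fallen ones (9.71% and 8.97% of all genes). Replicate spread was narrow, with a median pooled SD of 0.0442 log2 units per member and 0.126 over all genes. A narrower spread lets smaller differences pass, so the shares called among members and among all genes are not fully alike. Scaling moved the balance: after quantile normalization 35 members rose and 4 fell, and rises made up 89.7% of the member calls instead of 79.1%. The share of rises among all called genes moved in the same way, to 60.6% after quantile normalization, against 51.3% without it, and the median of all genes moved by 0.095. Centring each array on its median left 27 rises and 6 falls. Rises then made up 81.8% of the member calls and 54.7% of all called genes. Arrays set to the E1A control spots gave 34 rises and 7 falls. Rises then made up 82.9% of the member calls and 59.0% of all called genes. The E1A scaling moved the median of all genes by 0.10. The balance of all genes thus moved with each scaling, so member counts under another scaling cannot be read against the 29.7% and 28.2% above. Within each setting given here, rises made up a larger share of the member calls than of all called genes.

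**Figure D1:**
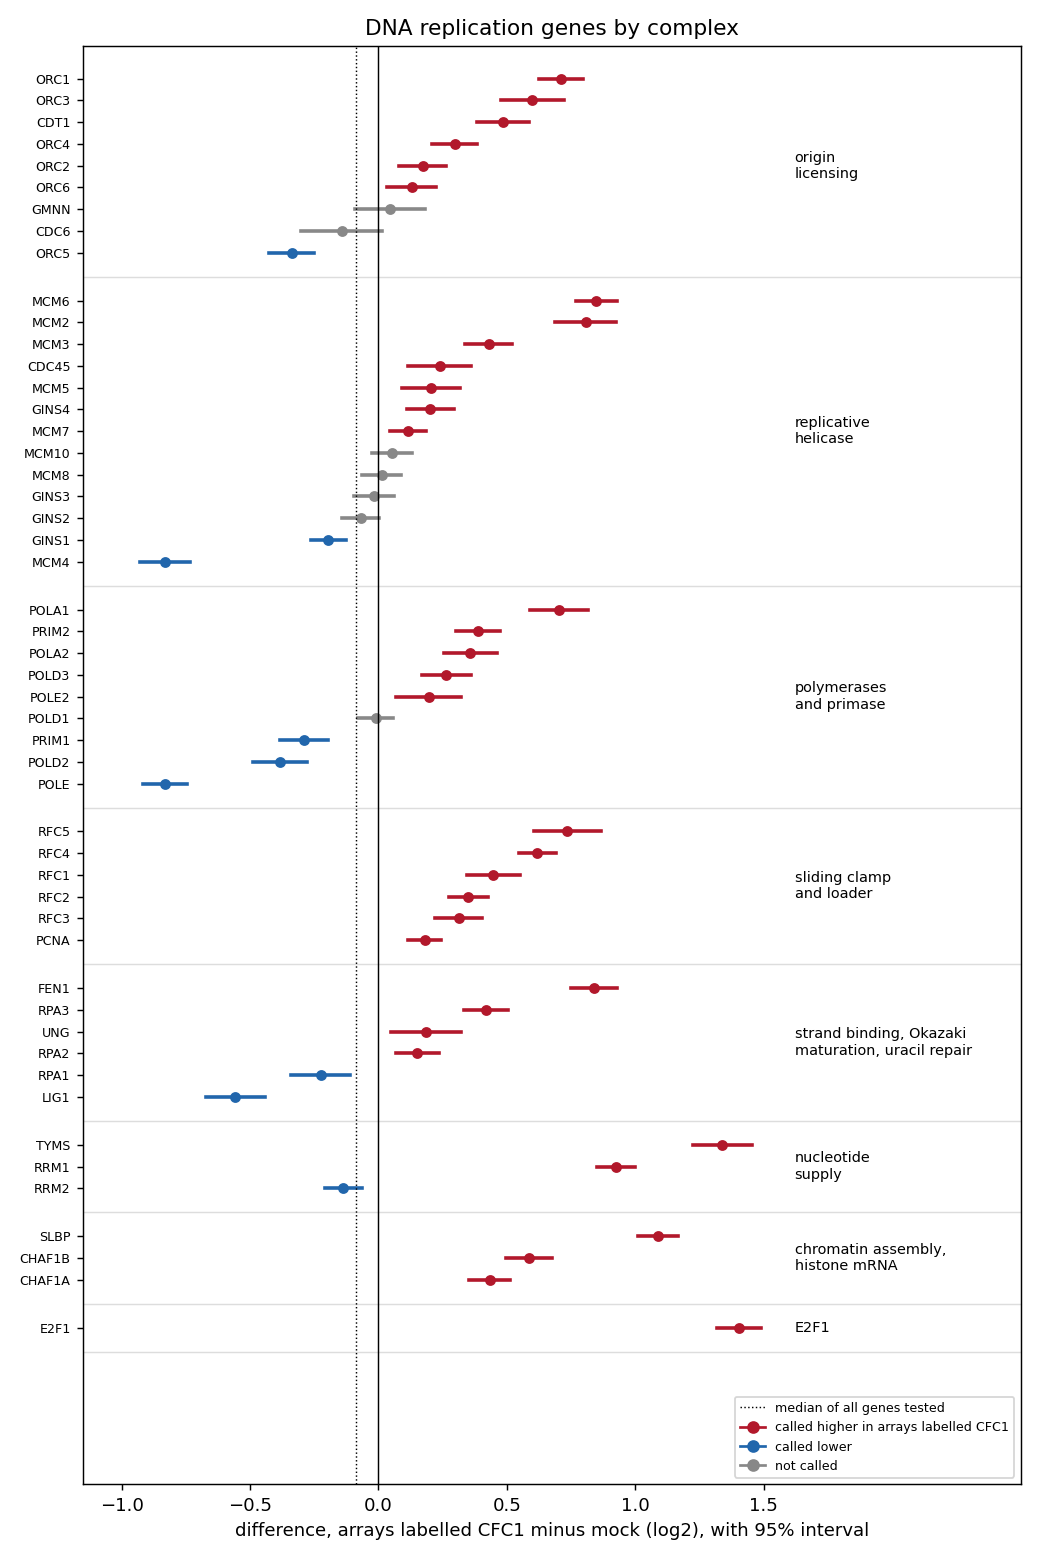
Difference between arrays labelled CFC1 and mock arrays (log2, x axis) for each of the 50 DNA replication genes, grouped by complex, with 95% intervals from limma. Points right of 0 are higher in the arrays labelled CFC1; the clamp and its loader lie wholly to the right, while MCM4 (-0.83), POLE (-0.83) and LIG1 (-0.56) lie far to the left of their partners.

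E2F1, the transcription factor that drives S phase genes, had the largest difference of the 50. Its values were 0.99, 1.03, 1.03 and 1.07 in the arrays labelled CFC1, against -0.42, -0.40, -0.32 and -0.35 in the mock arrays. The difference was 1.40 (SE 0.037, 95% interval 1.32 to 1.49, adjusted p = 3.9e-08 in limma), a 2.65-fold rise, with all 4 arrays labelled CFC1 above all 4 mock arrays.

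Because E2F sites are a known feature of replication gene promoters, RefSeq promoter windows of build GRCh38.p14 (250 bases before to 50 after each start) were searched. The letters searched were TTTCCCGC, TTTCGCGC, TTTGCCGC and TTTGGCGC on both strands. Windows were given for 44 of the 50 members, and 22 of the 44 held a match in at least 1 window. Among 35116 windows of all genes 3.31% held one, as did 5.25% of the 16413 measured genes with a window. The median difference was 0.19 in members with a match and 0.32 in members without, a contrast that was not tested. Only these exact letters were searched, so a member without a match may still hold an E2F site. Matches were found in 14 of 29 risen, 3 of 8 fallen and 5 of 7 uncalled members with a window. The stretches below show the 250 bases before the start for the risen genes E2F1 and TYMS and the fallen genes POLE and LIG1, since genes of both directions carry a match. They are read 5′ to 3′ on the strand of the gene, and capitals mark the match. E2F1 lies on the minus strand at chr20:33686386-33686635, TYMS on the plus strand at chr18:657403-657652, POLE on the minus strand at chr12:132687343-132687592 and LIG1 on the minus strand at chr19:48170345-48170594.
E2F1: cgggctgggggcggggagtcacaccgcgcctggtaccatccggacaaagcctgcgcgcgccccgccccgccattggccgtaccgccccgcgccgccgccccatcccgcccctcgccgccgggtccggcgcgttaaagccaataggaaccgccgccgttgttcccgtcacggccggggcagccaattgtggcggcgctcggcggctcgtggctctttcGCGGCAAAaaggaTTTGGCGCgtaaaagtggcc
TYMS: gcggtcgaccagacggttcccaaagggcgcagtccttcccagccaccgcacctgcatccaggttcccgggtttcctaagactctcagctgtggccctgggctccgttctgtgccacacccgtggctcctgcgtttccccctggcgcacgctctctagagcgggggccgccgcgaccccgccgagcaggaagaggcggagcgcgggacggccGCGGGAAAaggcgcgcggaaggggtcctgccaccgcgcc
POLE: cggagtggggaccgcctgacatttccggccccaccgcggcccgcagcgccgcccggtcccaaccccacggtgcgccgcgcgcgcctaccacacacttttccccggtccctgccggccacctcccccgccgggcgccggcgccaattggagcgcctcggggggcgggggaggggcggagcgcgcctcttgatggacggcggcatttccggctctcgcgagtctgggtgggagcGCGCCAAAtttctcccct
LIG1: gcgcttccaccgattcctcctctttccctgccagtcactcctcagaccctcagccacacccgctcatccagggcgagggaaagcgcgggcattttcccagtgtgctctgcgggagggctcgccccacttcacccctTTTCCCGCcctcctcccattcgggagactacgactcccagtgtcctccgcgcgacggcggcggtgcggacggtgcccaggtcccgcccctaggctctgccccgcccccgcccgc
The matches begin 33 and 20 bases before the start in E2F1, 39 in TYMS, 18 in POLE and 114 in LIG1. SLBP and RRM1, which also rose strongly, had no such letters in their windows. A match is a string of letters and does not show that a factor binds there. The CCAAT pentamer, searched on both strands, was in 27 of the 44 members and in 41.9% of measured genes with a window. TTTGAA, the core of the CHR element of mitotic genes, was in RRM1 and UNG, 2 of the 44, and in 16.1% of measured genes. None of the searched strings contains another, though matches can overlap at their ends.

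Origin licensing genes rose more often than they fell. Of 9 measured, 6 rose and 1 fell (29.7% and 28.2% of all genes), with a median of 0.17. ORC1, the ATPase subunit that in human cells is built up anew in each G1 phase, was 0.75, 0.70, 0.73 and 0.81 in the arrays labelled CFC1, against 0.00, 0.05, 0.07 and 0.04 in the mock arrays. All arrays labelled CFC1 lay above all mock arrays, a difference of 0.71 (SE 0.036, adjusted p = 1.2e-06 in limma). ORC3, a core subunit, stood at 0.43, 0.26, 0.32 and 0.35, against -0.19, -0.25, -0.35 and -0.24 in the mock arrays, a rise of 0.60 (SE 0.052). The licensing factor CDT1, which loads the MCM ring together with CDC6, rose by 0.49 (SE 0.043). ORC4 rose by 0.30, ORC2 by 0.17 and ORC6 by 0.13. ORC2 lost its call after centring on array medians (0.215, adjusted p = 0.0602 in limma). The call of ORC6 was lost without any single array other than CFC1 replicate 2 and mock replicates 3 and 4 (0.109 to 0.132, adjusted p up to 0.0735 in limma), after centring on array medians, and from probe-level p-values (0.068). ORC5 was the subunit that fell, by 0.34 (SE 0.037): its values were -0.01, -0.09, -0.03 and -0.04 in the arrays labelled CFC1 and 0.28, 0.25, 0.36 and 0.30 in the mock arrays, with no overlap, and both of its probes passed. After quantile normalization ORC5 stood at -0.19.

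The probes of ORC2 and ORC4 did not move together. For ORC4 one probe gave 0.67 and the other -0.08, and for ORC2 one gave 0.36 and the other -0.01, so the means above describe neither probe. CDC6, the ATPase that recruits CDT1 and the MCM ring, overlapped between the groups at -0.14 (95% interval -0.30 to 0.01) and passed without CFC1 replicate 2 (-0.195, adjusted p = 0.0234 in limma). Geminin (GMNN), which binds CDT1 and blocks relicensing, differed by 0.04 (95% interval -0.09 to 0.18). After quantile normalization GMNN passed at 0.30 (adjusted p = 0.0192 in limma), and CDC6 turned to 0.09 without passing.

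The 6 subunits of the MCM ring moved unequally. The ring carries 1 copy of each of MCM2 to MCM7, yet 5 rose and MCM4 fell, over a range of 1.68 log2 units. MCM2, MCM3, MCM4 and MCM6 were read by 1 probe each. Of the 12 members with more than 1 probe, 3 had probes of opposite sign, so a single probe may not speak for its gene. MCM6 was 0.22, 0.26, 0.17 and 0.24 in the arrays labelled CFC1, against -0.62, -0.64, -0.59 and -0.66 in the mock arrays, a rise of 0.85 (SE 0.034, adjusted p = 3.35e-07 in limma). MCM2 was 0.89, 0.74, 0.90 and 0.93, against 0.00, 0.05, 0.10 and 0.09 in the mock arrays, a rise of 0.81 (SE 0.051, adjusted p = 3.99e-06 in limma). Both sets of 4 arrays lay clear of each other in each gene. MCM4 went the other way. It stood at 0.00, 0.13, 0.11 and 0.13 in the arrays labelled CFC1 and at 0.90, 0.97, 0.93 and 0.90 in the mock arrays, a difference of -0.83 (SE 0.041, 95% interval -0.93 to -0.73, adjusted p = 1.1e-06 in limma). The size of the fall depended on scaling, with -0.44 after quantile normalization, where the call was kept. MCM3 rose by 0.43 and MCM5 and MCM7 by 0.20 and 0.12, and the last 2 lost their calls when arrays were centred on their medians (adjusted p = 0.052 and 0.099 in limma).

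The factors that turn the ring into a helicase differed by -0.19 to 0.24. CDC45 rose by 0.24 (SE 0.052), near the median of 0.22 over the 50. Within GINS, a complex of 4 small subunits, GINS4 rose by 0.20 and GINS1 fell by 0.19. GINS2 differed by -0.07 (95% interval -0.14 to 0.00), with groups that did not overlap and a call as lower when each gene kept its own variance (Benjamini-Hochberg adjusted p = 0.0188), and GINS3 by -0.02 (95% interval -0.09 to 0.06). These small values depended on scaling: GINS1 stood at -0.15, -0.09 and -0.01 without a call after median centring, the E1A scaling and quantile normalization, and GINS4 lost its call after median centring (adjusted p = 0.0688 in limma). GINS3 was above 0 under all 3 scalings and GINS2 under 2 of them, the E1A scaling and quantile normalization, none with a call. MCM10, which acts at helicase activation, differed by 0.05 (95% interval -0.03 to 0.13). MCM8, which works with MCM9 in homologous recombination, differed by 0.01 (95% interval -0.06 to 0.09). MCM10 passed after quantile normalization at 0.18. Over all 13 helicase genes 7 rose and 2 fell (29.7% and 28.2% of all genes), with a median of 0.12.

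**Figure D2:**
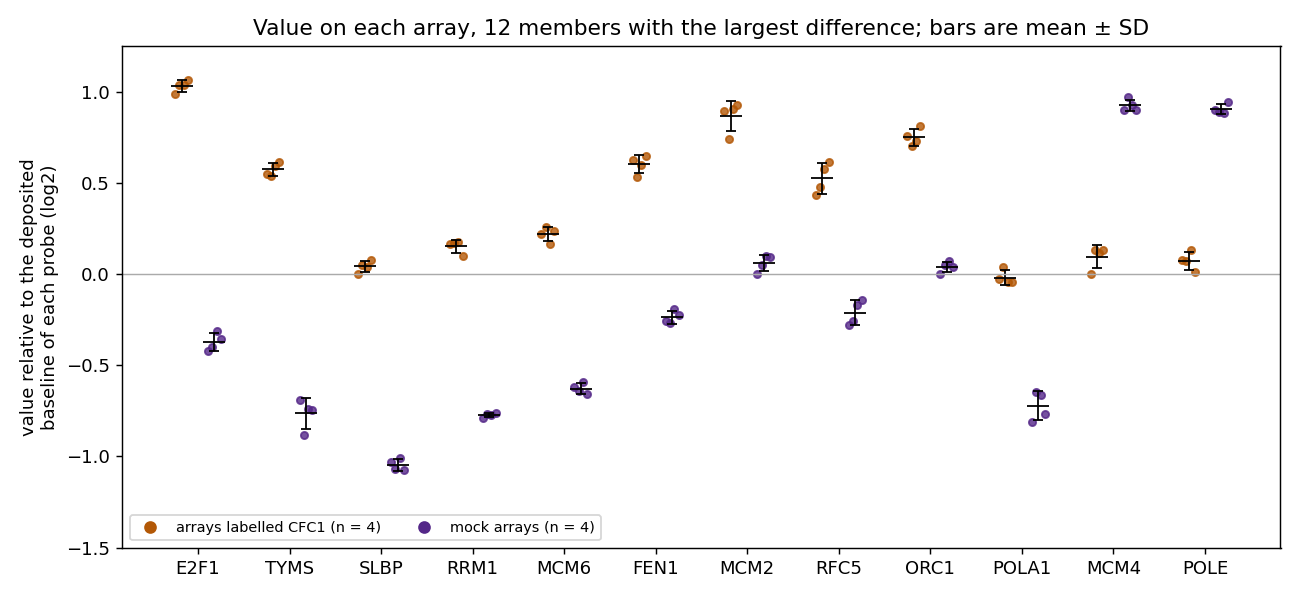
Value of each array relative to the deposited baseline of the probe (log2, y axis) for the 12 DNA replication genes with the largest difference, arrays labelled CFC1 left and mock arrays right of each pair. Points are arrays and bars show mean ± SD (n = 4); the groups of points do not overlap in any of the 12, and MCM4 and POLE are the 2 in which the arrays labelled CFC1 lie below.

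Polymerase delta, polymerase epsilon and primase each had subunits of both directions. Of 9 polymerase and primase genes, 5 rose and 3 fell, with a median of 0.20. The share that fell, 33.3%, was near the 28.2% of all genes that fell, while 29.7% of all genes rose. POLE, the catalytic subunit of the leading strand polymerase epsilon, stood at 0.08, 0.07, 0.13 and 0.01 in the arrays labelled CFC1, against 0.90, 0.89, 0.89 and 0.94 in the mock arrays. The groups lay well apart, by -0.83 (SE 0.037, 95% interval -0.92 to -0.75, adjusted p = 5.86e-07 in limma), and its 2 probes gave -1.004 and -0.66. After quantile normalization POLE stood at -0.47 with its call kept. The partner subunit POLE2 rose by 0.20 (SE 0.054), a call lost after median centring and after quantile normalization. The histone-fold subunits of the same enzyme, POLE3 and POLE4, are not among the 50; POLE3 rose by 0.40 and POLE4 by 1.17. With these added, polymerase epsilon ranged over 2.004 log2 units between subunits. Polymerase delta with POLD4, likewise not among the 50, ranged over 0.65 log2 units.

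Polymerase alpha, which starts each strand together with primase, rose in both of its own subunits. POLA1, the catalytic subunit, was -0.03, 0.04, -0.05 and -0.04 in the arrays labelled CFC1, against -0.81, -0.65, -0.66 and -0.77 in the mock arrays, a rise of 0.70 (SE 0.048, adjusted p = 6.81e-06 in limma) with no overlap. POLA2, the regulatory subunit, rose by 0.36 (SE 0.045). The primase subunits parted: PRIM2, the large one, rose by 0.39 with all 3 probes called, while PRIM1, the catalytic one, fell by 0.29 (SE 0.040) and lost its call after quantile normalization (-0.06). In polymerase delta, which extends Okazaki fragments, POLD3 rose by 0.26, POLD2 fell by 0.38 and the catalytic POLD1 differed by -0.01 (95% interval -0.08 to 0.06). POLD1 turned above 0 under each of the 3 other scalings without a call (0.03 to 0.11). POLA1, POLA2, PRIM1, POLD1, POLD2 and POLD3 were read by 1 probe each.

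The sliding clamp and its loader rose in every measured member. All 6 genes passed, where 29.7% of all genes rose, with differences from 0.18 to 0.74 and a median of 0.40. PCNA, the ring that tethers polymerases to DNA, was 0.21, 0.24, 0.23 and 0.26 in the arrays labelled CFC1, against 0.06, 0.05, 0.05 and 0.06 in the mock arrays. The groups did not overlap, the difference was 0.18 (SE 0.027, adjusted p = 0.000659 in limma), and its 3 probes gave 0.16 to 0.20. Replication factor C opens that ring and closes it around DNA. RFC5 was 0.43, 0.47, 0.57 and 0.62, against -0.28, -0.26, -0.17 and -0.14 in the mock arrays, a rise of 0.74 (SE 0.056, adjusted p = 1.15e-05 in limma). RFC4 was 0.15, 0.19, 0.20 and 0.15, against -0.45, -0.43, -0.47 and -0.43 in the mock arrays, a rise of 0.62 (SE 0.031). Neither gene had overlapping groups. RFC1, the large subunit, rose by 0.45, RFC2 by 0.35 and RFC3 by 0.31, with the probes of RFC3 at 0.43 and, without passing, 0.19. All 6 kept direction and call under the 3 other scalings, with PCNA at 0.22 to 0.43.

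Okazaki fragment processing and single-strand binding held members of both directions. FEN1, the nuclease that trims the flap of each fragment, was 0.62, 0.53, 0.60 and 0.65 in the arrays labelled CFC1, against -0.26, -0.27, -0.19 and -0.23 in the mock arrays. That rise of 0.84 (SE 0.038, adjusted p = 6.39e-07 in limma) stood beside a fall of 0.56 (SE 0.049) in LIG1, the ligase that seals the nick FEN1 leaves. LIG1 was 0.00, 0.11, 0.19 and 0.12, against 0.61, 0.63, 0.73 and 0.67 in the mock arrays, with no overlap. After quantile normalization, however, LIG1 stood at -0.21 (adjusted p = 0.0629 in limma). FEN1 and LIG1 were read by 1 probe each. The RPA trimer, which coats single strands, had RPA3 at 0.42 and RPA2 at 0.15 with rises and RPA1 with a fall of 0.23. The fall of RPA1 came from 1 probe at -0.56, while the other gave 0.11 without passing, and after quantile normalization RPA1 turned to 0.06 without passing. RPA1 and RPA2 also lost their calls after median centring. UNG, the uracil-DNA glycosylase, rose by 0.18 (SE 0.058), a call lost without CFC1 replicate 3 or 4 or mock replicate 2 (adjusted p 0.051 to 0.0658 in limma), or from probe-level p-values (0.0514).

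Nucleotide supply gave the largest median of the groups with several members, 0.92, but over 3 genes this is the value of RRM1 alone. TYMS, thymidylate synthase, was 0.55, 0.54, 0.59 and 0.62 in the arrays labelled CFC1, against -0.69, -0.88, -0.74 and -0.75 in the mock arrays. The groups lay far apart, by 1.34 (SE 0.049, 95% interval 1.22 to 1.45, adjusted p = 2.09e-07 in limma), a 2.53-fold rise. RRM1, the large subunit of ribonucleotide reductase, was 0.16, 0.17, 0.18 and 0.10, against -0.79, -0.77, -0.77 and -0.76 in the mock arrays, a rise of 0.92 (SE 0.031, adjusted p = 1.45e-07 in limma). Its partner RRM2, the small subunit that is made in S phase, was 0.05, 0.05, 0.00 and 0.06, against 0.16, 0.21, 0.18 and 0.17 in the mock arrays. RRM2 thus fell by 0.14 (SE 0.031), a call lost after median centring (-0.10) and the E1A scaling (-0.04), and after quantile normalization it stood at 0.06. The direction also depended on annotation: 2 probes named C2orf48 on the array share a gene record with RRM2 in the current RefSeq table and gave 0.28 and 0.30, and with them RRM2 would have risen by 0.15 (adjusted p = 0.0114 in limma).

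All 3 genes of chromatin assembly and histone mRNA rose, where 29.7% of all genes rose. SLBP, which binds the stem-loop of histone mRNAs, was 0.00, 0.05, 0.04 and 0.08 in the arrays labelled CFC1, against -1.03, -1.07, -1.01 and -1.07 in the mock arrays. The rise was 1.09 (SE 0.033, adjusted p = 8.25e-08 in limma) with no overlap. CHAF1B and CHAF1A, subunits of the chaperone CAF-1 that deposits histones behind the fork, rose by 0.58 (SE 0.038) and 0.43 (SE 0.034). CHAF1A had probes at 0.52 and 0.35. After quantile normalization CHAF1B stood at 0.91 and CHAF1A at 0.77.

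The genes beside each member on the chromosome were read as well. For each member the median difference of the 20 measured genes on either side in RefSeq order was taken, with fewer at chromosome ends. These medians ran from -0.52 to 0.60, and 42 of the 50 members lay above the median of their own neighbours. The neighbour median had the sign of the member in 26 of the 50, and in 21 of the 43 that passed. The Pearson correlation with the neighbour median was 0.52 over the 50 members and 0.28 over the 21482 placed genes, a description of genes that share arrays and, where close, neighbours. TYMS on chromosome 18 lay among genes with a median of 0.60, 19 of 26 of them risen. SLBP on chromosome 4 lay among genes with a median of 0.50, 26 of 40 risen. PRIM1 on chromosome 12 lay among genes with a median of -0.47, 27 of 40 fallen, and POLD2 on chromosome 7 among genes with a median of -0.34, 24 of 40 fallen. POLE, near the end of chromosome 12, had neighbours with a median of -0.31, 20 of 33 fallen. E2F1, MCM6, RRM1 and FEN1 had neighbour medians of 0.15, 0.00, 0.09 and 0.13, well below their own differences. MCM2 and RFC5 rose amid neighbours with medians of -0.15 and -0.21, and LIG1 fell amid neighbours with a median of 0.03. GINS2 had the lowest neighbour median, -0.52, and itself differed by -0.07. The part of chromosomal position in these differences was not tested.

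**Figure D3:**
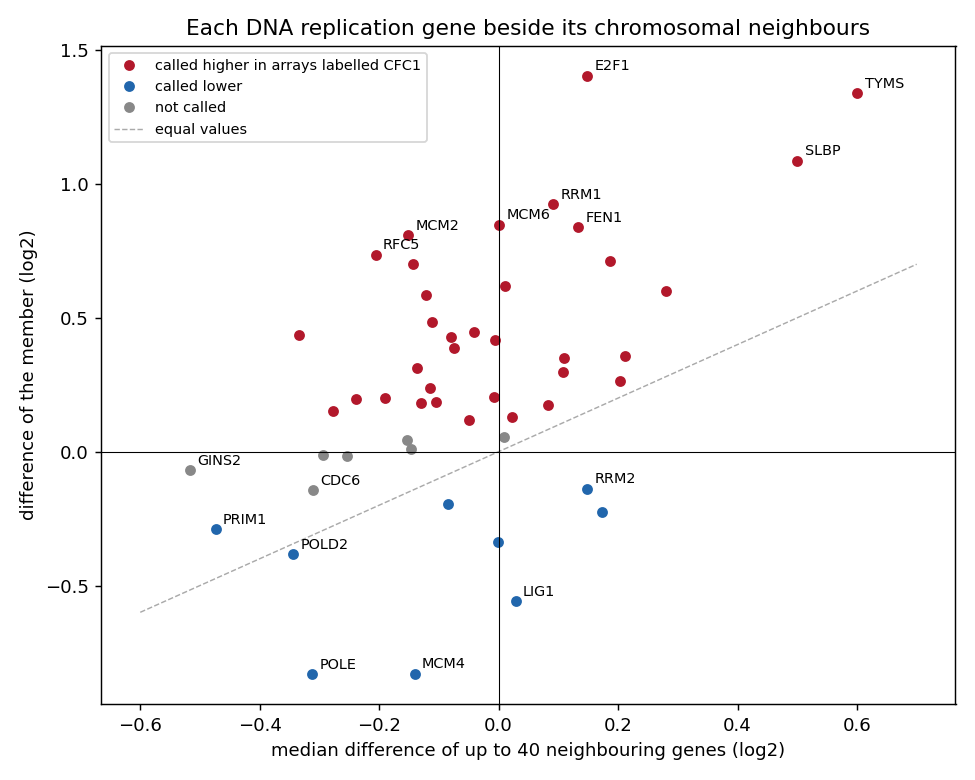
Difference of each DNA replication gene between arrays labelled CFC1 and mock arrays (log2, y axis) against the median difference of up to 40 neighbouring genes (log2, x axis). TYMS and SLBP sit at the right with neighbours at 0.60 and 0.50, and 42 of the 50 points lie above the dashed line of equal values.

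Other genes of replication, its regulators and the cell cycle were read as 8 lists, 1 of them of G2 and mitosis, chosen with earlier results of these data known. Of their 102 measured genes, 55 rose and 17 fell (29.7% and 28.2% of all genes), with a median of 0.20. After quantile normalization 59 rose and 8 fell, where among all 21525 genes 6660 rose and 4329 fell, against 6388 and 6069 without it. Among 12 other origin factors 6 rose and 2 fell. MCMBP, which binds MCM subunits outside the ring, rose by 1.32, and DBF4, the activator of the origin kinase CDC7, by 0.58. RECQL4, a helicase of origin firing, rose by 0.53. MCM9 fell by 0.31, a call lost after median centring, after the E1A scaling and without CFC1 replicate 2 or 4 or mock replicate 4 (adjusted p 0.0539 to 0.0555 in limma). After quantile normalization MCM9 stood at 0.03. Among 14 other fork factors 6 rose and 3 fell, with a median of -0.01. Besides POLE4, RNASEH2B, a subunit of the RNase that removes ribonucleotides, rose by 0.75, DNA2, a flap nuclease, rose by 0.60, and TOP2A, the topoisomerase that untangles daughter strands, fell by 0.65.

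Checkpoint genes gave some of the largest values. Of 12, 5 rose and 2 fell (29.7% and 28.2% of all genes), with a median of 0.12. CHEK1, the kinase that restrains origin firing under replication stress, was 0.34, 0.36, 0.43 and 0.41 in the arrays labelled CFC1, against -1.18, -1.41, -1.38 and -1.28 in the mock arrays. It rose by 1.70 (SE 0.058, adjusted p = 1.52e-07 in limma) and lay among neighbours with a median of 0.83. CDC25A, the phosphatase that activates CDK2, and ATRIP, the partner of the kinase ATR, rose by 1.26 and 1.21, with neighbour medians of 0.76 and 0.93. Both genes lie on chromosome 3, so their sets of neighbours may overlap. TIMELESS, a fork protection factor, fell by 0.65 amid neighbours with a median of -0.44.

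Of 11 other nucleotide enzymes 6 rose and 2 fell (29.7% and 28.2% of all genes), with a median of 0.37. DCTD, which makes dUMP for TYMS, rose by 1.08, TK1, thymidine kinase, by 0.99, SAMHD1, which breaks down dNTPs, by 0.86, and RRM2B, an alternative small subunit of the reductase, by 0.67. The call of RRM2B was lost after quantile normalization (0.387, adjusted p = 0.174 in limma). Of 7 histone chaperone genes 4 rose and 0 fell (limma, with 3 not passing). HAT1, a histone acetyltransferase, rose by 0.65, ASF1A by 0.62, ASF1B by 0.43 and TONSL by 0.13. ASF1A, a chaperone that hands histones to CAF-1, lost its call without CFC1 replicate 1 or 3 or mock replicate 3 (adjusted p 0.064 to 0.0687 in limma), and TONSL after median centring or from its probe with the smallest p.

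Of 17 E2F, RB and DREAM regulators, a list that also holds the MuvB subunits LIN9, LIN37, LIN52 and LIN54 and the factor MYBL2, 13 rose and 2 fell. E2F5, a repressor E2F, was -0.02, -0.09, 0.00 and -0.08 in the arrays labelled CFC1, against -4.07, -3.96, -4.15 and -4.45 in the mock arrays. Its rise of 4.11 (SE 0.101, adjusted p = 2.79e-08 in limma) is a fitted value, since how near the mock arrays lay to background is unknown. RBL1, the pocket protein p107, rose by 1.07 and E2F6 by 0.92, and E2F7, a repressor of E2F1 targets, fell by 0.95. Of 9 cyclin and kinase genes 6 rose and 1 fell. CDKN1A, the inhibitor p21, rose by 1.45, CCND1 by 0.54 and CCNE1, a partner of CDK2 in S phase entry, by 0.48. CCNE2, another such partner, fell by 0.35, a call lost after quantile normalization. In the G2 and mitosis list, 9 of 20 rose and 5 fell. For this list and the 2 before it, the shares of all genes were 29.7% risen and 28.2% fallen. BUB1, CCNB1 and MAD2L1 rose by 0.82, 0.81 and 0.75, and BUB1B fell by 0.78. The median was 0.22 over the replication genes, against 0.06 over this list and -0.01 over the other fork factors. Medians were higher in the other nucleotide enzymes (0.37), the E2F, RB and DREAM regulators (0.33) and the cyclins and kinases (0.23). They were lower in the other origin factors (0.15), the checkpoint genes (0.12) and the histone chaperones (0.13). No test of the difference between lists was made.

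**Figure D4:**
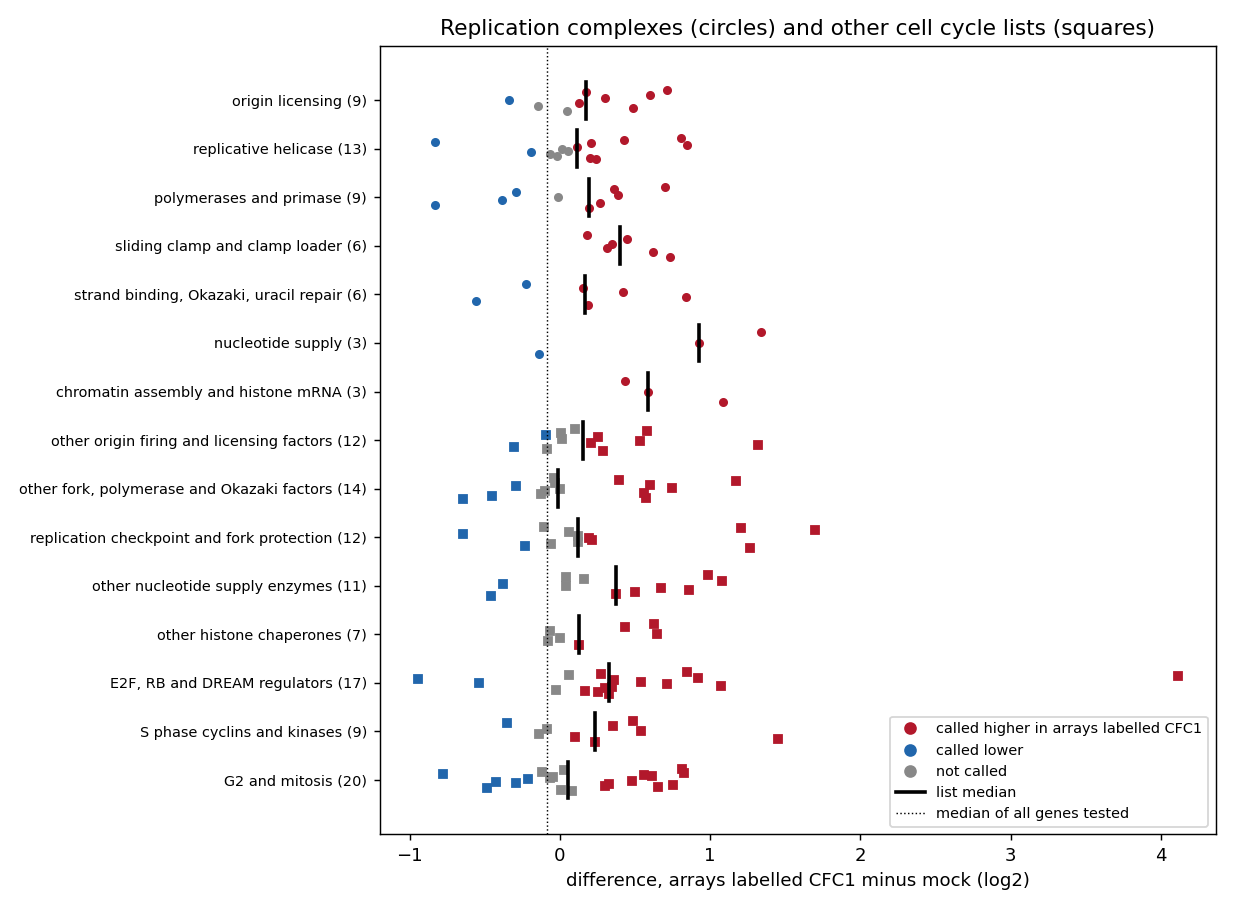
Differences between arrays labelled CFC1 and mock arrays (log2, x axis) for replication complexes (circles) and the other cell cycle lists (squares), with the number of measured genes in brackets and each median as a bar. E2F5 (4.11) stands far right of all other genes shown. The medians of the clamp group (0.40), nucleotide supply (0.92, 3 genes) and the E2F, RB and DREAM list (0.33) lie right of that of the G2 and mitosis list (0.06).

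Markers of neuroblastoma and of fibroblasts moved as well. Of 8 measured neuroblastoma markers 1 rose and 5 fell, with a median of -0.38. Of 7 fibroblast markers 1 rose and 4 fell, with a median of -0.28, where 29.7% of all genes rose and 28.2% fell. MYCN, the amplified oncogene of the line and a driver of growth, was the 1 neuroblastoma marker that rose, by 0.16. Its call was lost after median centring and quantile normalization (adjusted p = 0.0982 and 0.0642 in limma). ISL1, an adrenergic transcription factor, had the largest fall of the 8, at -2.18. Summed levels of these lists cannot be had from baseline-relative values, and their part in the differences of the replication genes was not tested.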

How the data were processed

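The authors' deposited table holds log2 values of 8 arrays relative to an unstated baseline per probe (read as log2: the log base, feature extraction, background treatment and scaling are each not given in the sources used here). RNA was labelled with Cyanine3, per the labels' protocols. Without the 140 control spots the arrays held 50599 probes, of which 31993 had 1 gene symbol, none had several and 18606 had none. Symbols were updated through RefSeq accession (28419 probes), symbol (3072) or synonym (480), and 22 were kept. The 2 C2orf48 probes kept their annotated name. Probes of 1 gene were averaged, giving 21525 genes. The number of arrays limits the precision.

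All 8 arrays were fitted by lmFit and eBayes of limma 3.58.1, run under R 4.3.3, without a block. Lists and windows were handled in pandas 2.3.3 and numpy 2.4.6 under Python 3.11.15. The model was tested on simulated data. All 50 members could be named, and from each other list the 4 called genes with the largest difference. POLE3, MYCN and ISL1 were named after their values were seen, as was POLD4, given without a value of its own. The members and lists were chosen with earlier results of these data known.

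Alternatives were quantile normalization, a block for the replicate number, median centring, array weights, a variance trend, unmoderated variances, the median of a gene's probes, the probe with the smallest p, natural logarithms and leaving out each array. The E1A scaling and the C2orf48 probes were added after seeing the data.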

Additional observations from a re-analysis of the deposited data

Results flagged for a closer look

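Among the 86 genes given with values, including CFC1, 11 of 172 groups of 4 arrays held an array far from the other 3 by Dixon's criterion at the 95% level, which chance alone meets in about 1 of 20 groups. Among the arrays labelled CFC1, MCM4 stood at 0.0 in replicate 1 with the others at 0.114 to 0.131, and RFC3 at 0.465 in replicate 4 with the others at 0.357 to 0.374. RPA3 stood at -0.074 in replicate 2 with the others at -0.002 to 0.0, and RRM2 at 0.0 in replicate 3 with the others at 0.054 to 0.061. POLE4 stood at 1.309 in replicate 3 with the others at 1.235 to 1.243, and SAMHD1 at 0.0 in replicate 1 with the others at -0.299 to -0.266. POLE3 stood at 0.405 in replicate 4 with the others at 0.26 to 0.281. Among the mock arrays, MCM8 stood at 0.0 in replicate 3 with the others at 0.044 to 0.053, and UNG at -0.037 in replicate 2 with the others at 0.117 to 0.142. ASF1B stood at -0.275 in replicate 3 with the others at -0.379 to -0.368, and E2F7 at 1.199 in replicate 1 with the others at 0.956 to 0.984.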

How the results depend on the processing

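Over all alternatives, 1558 single-gene values, counted per gene and alternative, kept direction and side of the threshold, 40 lost the call, 4 gained it and 13 turned in sign. The 1558 include values that could hardly change. Natural logarithms scale every value alike, the C2orf48 probes enter only RRM2, and for genes with 1 or 2 probes median and mean are equal. The count is therefore no measure of stability. With the C2orf48 probes RRM2 turned to 0.145. After centring on array medians, GINS3 stood at 0.025 and POLD1 at 0.031. With the E1A scaling, GINS2 stood at 0.033, GINS3 at 0.085 and POLD1 at 0.091. After quantile normalization, CDC6 stood at 0.09, GINS2 at 0.081, GINS3 at 0.121, POLD1 at 0.108, RPA1 at 0.058, RRM2 at 0.059 and MCM9 at 0.029, and 4 members and 8 of the other 102 listed genes fell. The cause was not tested.

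The median difference over members was 0.264 after median centring, 0.324 with the E1A scaling, 0.256 from the probe with the smallest p, 0.436 after quantile normalization and 0.32 with values read as natural logarithms. In the same settings, origin licensing had medians of 0.275 (E1A), 0.359 (smallest p), 0.363 (quantile) and 0.25 (natural logarithms), and the helicase 0.159 (centring), 0.218 (E1A), 0.259 (quantile) and 0.168 (natural logarithms). Polymerases and primase had 0.238 (centring), 0.297 (E1A) and 0.282 (natural logarithms), and the clamp and loader 0.501 (E1A), 0.62 (quantile) and 0.575 (natural logarithms). Strand binding and Okazaki genes had 0.269 (E1A), 0.381 (quantile) and 0.241 (natural logarithms), nucleotide supply 0.966 (centring), 1.026 (E1A) and 1.333 (natural logarithms), and chromatin genes 0.686 (E1A), 0.913 (quantile) and 0.843 (natural logarithms). CFC1 lost its call at -0.754 (centring), -0.694 (E1A), -0.736 (quantile) and -0.796 (smallest p, unmoderated variances). Leaving out 1 array at a time gave 0.206 to 0.249 for the member median, 0.161 to 0.233 for polymerases and primase, and -0.944 to -0.568 for CFC1, whose call was lost in 5 of the 8 fits (adjusted p 0.061 to 0.0994 in limma).

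With the replicate number as a block, 34 members rose and 9 fell, the same counts as without it, with 6446 risen and 6755 fallen among all genes, and the CFC1 difference of -0.796 lost its call (adjusted p = 0.0761 in limma). Deviations of same-numbered arrays correlated at 0.138, 0.199, 0.074 and 0.19, and other pairs at -0.14 to 0.068, so each array correlated best with its own number. That is a hint from the data and not from the design, and 1 pair lay under 0.1.

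Signal over background is unknown, since the deposited values hold no background or saturation flags. The unstated baseline and log base leave levels unknown and scale every difference by the same factor if natural logarithms were used. The smallest difference called among the members was 0.12 (MCM7).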
